A study of Mus musculus with 6 samples.

Results

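The carriers described here move inorganic ions across cell membranes: phosphate (Slc20a and Slc34a), sodium against protons (Slc9a), bicarbonate (Slc4a), chloride, sulfate and other anions (Slc26a), sodium, potassium and chloride together (Slc12a) and calcium in exchange for sodium (Slc8a and Slc24a). They were chosen by name. Every row of the array whose annotation gave exactly 1 gene symbol made of one of these family names and a number was taken, with the row of highest mean over the 6 arrays where a gene had several. This gave 48 genes of the 19938 tested. Slc9a3r1, Slc9a3r2 and Slc4a1ap carry such a name with letters after the number and encode partner proteins, not carriers, so they were counted with the regulators.

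The RNA came from mucosa scraped off the jejunum, the middle part of the small intestine, of chow-fed C57/BL mice at 8 to 10 weeks of age. The wild type group and the ISR2 group hold 3 arrays each. ISR2 mice are a transgenic line of the same strain in which SREBP2, the transcription factor that turns on cholesterol synthesis genes, is overactive in the intestine, and the wild type mice are their littermates. No source used here gives the transgene's construct or promoter. The labels do not say whether an array held RNA of 1 mouse, so the p-values rest on a spread between samples that may be technical.

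Enterocytes absorb salt by pairing the sodium-proton exchanger in the brush border with a chloride-bicarbonate exchanger beside it, and the sodium pump at the other side of the cell keeps the sodium gradient that drives them. The same gradient drives phosphate uptake. In the small intestine the main phosphate carrier of the brush border is the product of Slc34a2, while Slc34a1 and Slc34a3 are known for phosphate reabsorption in the kidney and Slc20a1 and Slc20a2 are found in most tissues. Basolateral carriers such as Slc12a2 and Slc4a4 load the cell with the chloride and bicarbonate that crypt cells secrete.

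All values are log2 signals after RMA, the authors' normalization, and all differences are ISR2 minus wild type on that scale. Array medians lay between 6.04 and 6.19. A gene "rose" or "fell" where limma's adjusted p over all genes was below 0.05. No detection call was used, so no level is shown to be above background, and levels of different genes are not compared because each probe set has its own brightness. All 8 enterocyte markers were measured (list mean 12.60 to 12.67 in wild type and 12.39 to 12.54 in ISR2), which fits the labelled tissue. In this list 0 markers passed in limma, and 4 had an unadjusted p below 0.05, beside 13.1% of all genes. In 4 (50%) every ISR2 array was lower than every wild type array, beside 13.9% of all genes. Less RNA per cell and fewer cells of a type cannot be told apart in such bulk samples.

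The arrays differed in muscle content. The mean of 6 smooth muscle markers was 11.02 in wild type replicate 2 and 10.17 in ISR2 replicate 2, against 7.26 to 7.95 in the other 4 arrays. Both groups hold 1 such array. The mean of 4 T cell markers was 7.32 to 7.61 in wild type and 6.59 to 7.00 in ISR2. Of the 4, 2 fell, beside 1.23% of all genes.

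Phosphate carriers held all the calls. Of the 48 genes, 1 rose (Slc20a1) and 2 fell (Slc34a2 and Slc34a3), so 6.25% were called, beside 3.02% of all genes (1.79% rose and 1.23% fell). After median centring or quantile normalization of the arrays 1 rose and 1 fell, since Slc34a3 was lost, and the split of all genes went from 356 risen and 246 fallen to 370 and 178 after median centring. Groups did not overlap for 9 of the 48, or 18.8%, beside 19.8% of all genes: 2 were higher in ISR2 (5.87% of all genes were) and 7 lower (13.9%). An unadjusted p below 0.05 was met by 8, beside 13.1% of all genes. The median difference of the carriers was -0.11 and that of all genes -0.06, and 35 carriers (72.9%) had a value below 0, as did 62.6% of all genes. Outside the phosphate carriers, 0 of 43 genes passed in limma, 4 had an unadjusted p below 0.05, and with array weights Slc9a3 rose and Slc12a3 and Slc9a5 fell.

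**Figure D1:**
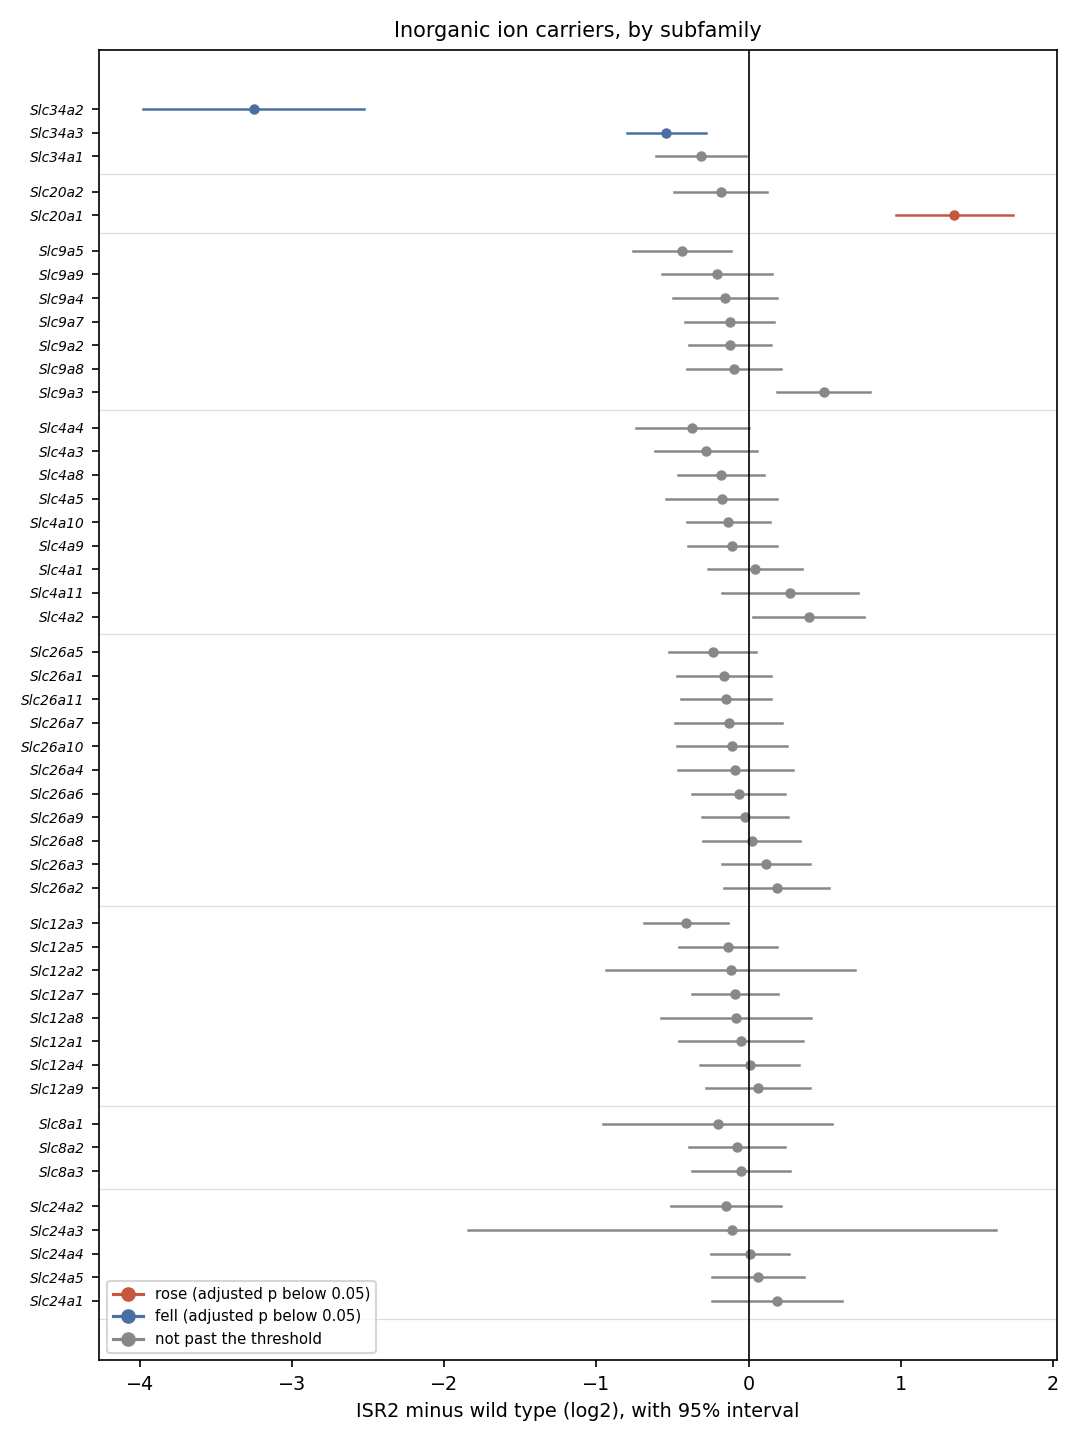
The 48 ion carriers by subfamily, each point the log2 difference of ISR2 minus wild type (3 arrays each) and each line its 95% interval from limma. Slc34a2 at -3.26 and Slc20a1 at 1.35 lie apart from the rest, and Slc24a3 has the widest interval, from -1.85 to 1.63.

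Slc34a2, the brush border sodium-phosphate cotransporter NaPi-IIb, stood at 9.65, 8.77 and 10.19 in wild type replicates 1, 2 and 3, and at 6.56, 5.92 and 6.36 in the ISR2 replicates. Every ISR2 array was lower than every wild type array, with a gap between the nearest arrays that was wider than the range within either group. Its log2 signal fell by 3.26 (SE 0.32, 95% interval -3.98 to -2.53, adjusted p = 0.000615), from 9.54 ± 0.72 to 6.28 ± 0.33 (mean ± SD, n = 3), a 9.55-fold difference. Replicate 2, the muscle-rich array, was the lowest of its group on both sides, and without both of these arrays the value was -3.46 (adjusted p = 0.000126). Signals of position along the intestine differed beside it. The mean of 5 markers of the proximal small intestine was 8.77 to 8.99 in wild type and 7.57 to 7.98 in ISR2. Beside 1.23% of all genes, 2 of the 5 fell. These were Ada, adenosine deaminase (-3.47), which carries most of the list's shift, and Hsd17b6 (-1.13), and the other 3 differed by -0.21 to -0.53. Of 2 markers of the distal small intestine, Slc10a2, the ileal bile acid transporter, rose by 1.01, from a mean of 4.62 to 5.63. Fabp6, the ileal bile acid binding protein, was lower in all ISR2 arrays (-0.26, adjusted p = 0.476). Both gave signals below the array medians in every array. The part of tissue position in the Slc34a2 result was not tested.

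Slc20a1, which encodes the phosphate carrier PiT-1, went the other way. It stood at 8.87, 8.75 and 8.26 in the wild type replicates and at 10.06, 9.98 and 9.90 in the ISR2 replicates, so the ISR2 arrays were all higher and lay closer together than the wild type ones. It rose by 1.35 (SE 0.17, 95% interval 0.97 to 1.74, adjusted p = 0.0025), a 2.56-fold difference (8.63 ± 0.33 to 9.98 ± 0.08, mean ± SD, n = 3). Without the muscle-rich arrays the value was 1.42 (adjusted p = 0.0157). Its paralog Slc20a2, which encodes PiT-2, read 8.63, 8.88 and 8.82 in wild type and 8.43, 8.67 and 8.67 in ISR2. These groups overlapped, and the difference was -0.18 (95% interval -0.49 to 0.12, adjusted p = 0.647).

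The kidney-type carriers of the Slc34a family gave signals near the array medians and were lower in ISR2. Slc34a3, which encodes NaPi-IIc, read 6.70, 6.71 and 6.80 in wild type and 6.22, 6.15 and 6.21 in ISR2. The groups were tight and apart, and the gene fell by 0.54 (SE 0.11, adjusted p = 0.0401). This call was close to the threshold: it was lost without any 1 of the 6 arrays (adjusted p 0.0766 to 0.148), after median centring (0.088), after quantile normalization (0.0546), with all rows tested (0.0899) and without both muscle-rich arrays (0.157). Slc34a1, which encodes NaPi-IIa, read 6.01, 5.81 and 5.98 in wild type and 5.50, 5.77 and 5.59 in ISR2. Its ISR2 arrays were all lower, by a mean of 0.31 that did not pass (adjusted p = 0.347). All 3 members of the family were therefore lower in every ISR2 array than in any wild type array, which held for 13.9% of all genes.

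**Figure D2:**
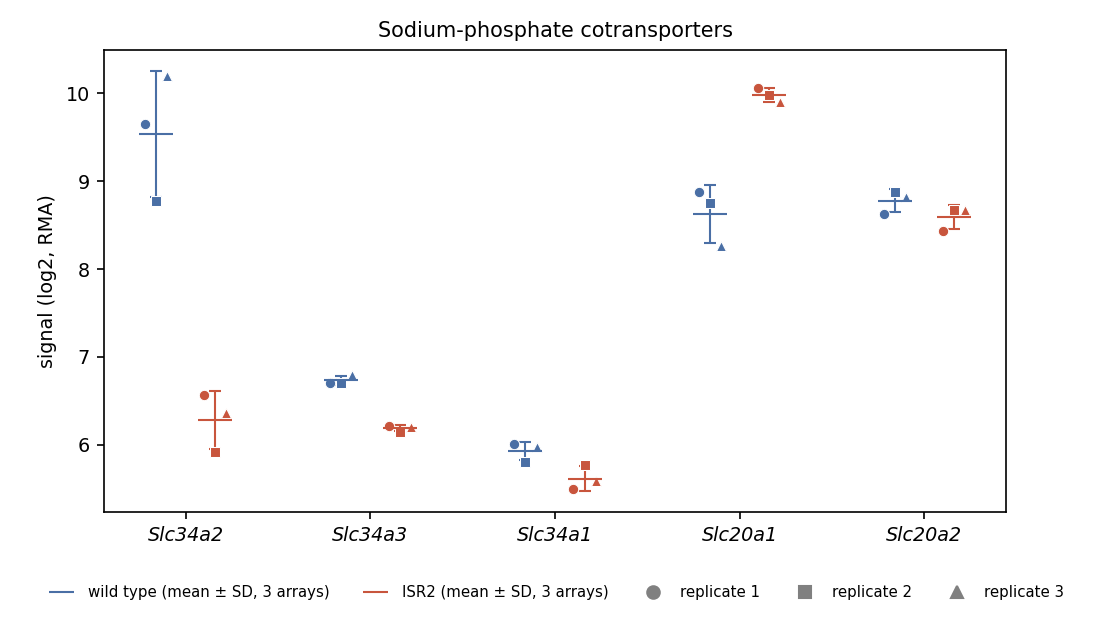
Log2 RMA signal of the 5 sodium-phosphate cotransporter genes in each array, with mean and SD bars for 3 wild type and 3 ISR2 arrays. Slc34a2 fell from 9.54 to 6.28 and Slc20a1 rose from 8.63 to 9.98, while Slc20a2 overlapped between groups.

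The sequence before the start of transcription is shown for the 3 called genes, since they share a substrate and moved in opposite directions. The RefSeq promoter table (build GRCm38.p6) matched 38 of the 48 carriers by gene ID. The windows of 300 bases, 250 before and 50 after each annotated start, were searched on both strands for TCACNCCAC, a form of the sterol regulatory element bound by SREBP, and for the E-box CACGTG, which reads the same on both strands. Matches of the first were found in 0 of the 38 genes, where 1.44% of all 27025 genes in the table have one. The E-box was found in 7 of the 38 (18.4%), where 8.09% of all genes have one. The 7 are Slc20a1, Slc9a3, Slc12a5, Slc12a7, Slc12a9, Slc24a4 and Slc26a1, and of these only Slc20a1 was called. Apart from Slc20a1 and Slc9a3, their differences ran from -0.16 (Slc26a1) to 0.06 (Slc12a9), with overlapping groups. Slc34a2 and Slc34a3 are not among the 7. Slc20a1 has 2 E-boxes before its first annotated start, beginning 175 and 22 bases before it, and none before its second. These matches describe letters only and show no binding. The 250 bases before each start are given 5′ to 3′ on the gene's strand, with E-boxes in capitals, for Slc34a2 at chr5:53049103-53049352 (plus strand), the first start of Slc20a1 at chr2:129198523-129198772 (plus strand) and Slc34a3 at chr2:25234235-25234484 (minus strand).
Slc34a2: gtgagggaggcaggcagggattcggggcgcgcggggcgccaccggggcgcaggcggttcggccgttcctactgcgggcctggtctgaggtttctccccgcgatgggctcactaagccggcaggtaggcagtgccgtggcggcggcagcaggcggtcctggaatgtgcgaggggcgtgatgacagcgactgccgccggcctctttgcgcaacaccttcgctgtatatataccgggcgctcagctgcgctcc
Slc20a1: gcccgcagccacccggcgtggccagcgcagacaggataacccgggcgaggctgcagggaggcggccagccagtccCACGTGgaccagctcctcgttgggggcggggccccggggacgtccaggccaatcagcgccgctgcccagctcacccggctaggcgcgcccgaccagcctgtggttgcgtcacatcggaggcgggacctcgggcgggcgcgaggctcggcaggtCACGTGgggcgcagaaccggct
Slc34a3: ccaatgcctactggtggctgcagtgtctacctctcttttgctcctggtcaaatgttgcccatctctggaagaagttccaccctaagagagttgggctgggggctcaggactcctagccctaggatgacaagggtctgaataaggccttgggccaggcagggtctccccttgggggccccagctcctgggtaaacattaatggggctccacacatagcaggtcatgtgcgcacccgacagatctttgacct

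Genes that handle phosphate and calcium around these carriers showed 1 fall and 0 rises in limma among 17 measured (2 lower and 0 higher at an unadjusted p below 0.05), and the list's median was -0.10. The call makes 5.88% of the list, where 3.02% of all genes were called, and the share at the unadjusted threshold was 11.8%, beside 13.1% of all genes. Alpi, the intestinal alkaline phosphatase that frees phosphate at the brush border, read 13.11, 12.87 and 12.80 in wild type and 11.85, 12.31 and 12.32 in ISR2. It fell by 0.77 (SE 0.16, adjusted p = 0.0417), and the call was lost without any single array other than ISR2 replicate 2 (adjusted p up to 0.194), without both muscle-rich arrays (0.087), with all rows tested (0.112) and after median centring (0.0721). The other 16 genes did not pass. Akp3 had the largest difference of the list (-1.36, adjusted p = 0.256, groups overlapping), and it fell at the unadjusted threshold with a 1.5-fold change.

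Among the sodium-proton exchangers, 0 of 7 genes passed in limma and 2 had an unadjusted p below 0.05, beside 3.02% and 13.1% of all genes. Slc9a3, the main sodium-proton exchanger of the brush border, NHE3, read 10.66, 10.41 and 10.50 in wild type and 11.01, 11.17 and 10.86 in ISR2. All ISR2 arrays were higher, by a mean of 0.49 (SE 0.14, 95% interval 0.19 to 0.80), but the adjusted p was 0.117, and it was 0.0284 with array weights. Without the muscle-rich arrays the difference was 0.36 (adjusted p = 0.391). Slc9a2, another apical exchanger, read 10.40, 10.34 and 10.36 in wild type and 10.13, 10.34 and 10.27 in ISR2. Its groups were apart by less than the range of the ISR2 arrays, and the difference of -0.12 did not pass (95% interval -0.39 to 0.15, adjusted p = 0.755).

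Slc9a5, an exchanger best known from the brain, read 5.72, 5.69 and 5.66 in wild type and 5.18, 5.07 and 5.51 in ISR2 (-0.44, adjusted p = 0.205; 0.0389 with array weights, and up to 0.50 without wild type replicate 1). The wild type arrays were tight and all ISR2 arrays lay below them. Slc9a9, an exchanger of endosomes, read 6.10, 6.42 and 6.36 in wild type and 6.21, 5.80 and 6.24 in ISR2, with overlap (-0.21, adjusted p = 0.669). The differences of the whole family ran from -0.44 to 0.49 with a median of -0.12, and Slc9a3 was the 1 gene of the 7 with a value above 0.

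The bicarbonate carriers of the Slc4a family had no call in limma among 9 genes, where 3.02% of all genes were called. An unadjusted p below 0.05 was met by 1, beside 13.1% of all genes. Differences ran from -0.37 to 0.39 with a median of -0.13. Slc4a2, the basolateral anion exchanger AE2, read 8.36, 8.36 and 8.68 in wild type and 8.86, 8.63 and 9.10 in ISR2. The groups overlapped by 1 array on each side, and the difference was 0.39 (SE 0.16, adjusted p = 0.333). Slc4a4, the basolateral sodium-bicarbonate cotransporter NBCe1, read 9.49, 9.40 and 9.49 in wild type and 9.08, 8.79 and 9.41 in ISR2. Its ISR2 arrays spread more widely and ISR2 replicate 3 reached into the wild type range, and the difference of -0.37 did not pass (SE 0.17, adjusted p = 0.386).

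Slc4a3, the anion exchanger AE3 of heart and nerve cells, read 6.67, 6.91 and 6.51 in wild type and 6.27, 6.57 and 6.41 in ISR2 (-0.28, adjusted p = 0.488), and its second row on the array differed by -0.03. Slc4a8, a sodium-driven chloride-bicarbonate exchanger, read 5.89, 6.09 and 5.93 in wild type and 5.89, 5.76 and 5.72 in ISR2 (-0.18, adjusted p = 0.62). Slc4a11, known for its part in the corneal endothelium, read 5.33, 5.54 and 6.06 in wild type and 5.97, 6.08 and 5.70 in ISR2 (0.27, adjusted p = 0.644). The groups of Slc4a3 and Slc4a11 overlapped, and those of Slc4a8 touched. Slc4a1, the anion exchanger of red blood cells, overlapped between groups, as did the red cell marker Alas2, the 1 of 6 such markers measured. The others of the family, Slc4a5, Slc4a9 and Slc4a10, overlapped too.

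Anion carriers of the Slc26a family differed little. None of the 11 genes passed in limma, 0 had an unadjusted p below 0.05 and 0 had groups that did not overlap. The shares over all genes were 3.02%, 13.1% and 19.8%, so a count of 0 calls among 11 is near the general share. Their differences lay between -0.23 and 0.18. Slc26a3, the chloride-bicarbonate exchanger DRA that works beside NHE3, read 10.13, 9.92 and 10.21 in wild type and 10.14, 10.24 and 10.23 in ISR2. The difference was 0.11 (95% interval -0.17 to 0.40, adjusted p = 0.789). Slc26a6, an apical exchanger of chloride, bicarbonate and oxalate, read 10.44, 10.13 and 10.39 in wild type and 10.14, 10.27 and 10.35 in ISR2, with a difference of -0.07 (95% interval -0.37 to 0.24, adjusted p = 0.899). With 3 arrays per group these intervals give the differences that the data allow, and no detection limit was computed. Slc26a5, the motor protein prestin of hearing, read 4.62, 4.55 and 4.37 in wild type and 4.37, 4.22 and 4.24 in ISR2, with groups that met at their edges (-0.23, adjusted p = 0.499). The sulfate carriers Slc26a1 and Slc26a2 and the remaining Slc26a4, Slc26a7, Slc26a8, Slc26a9, Slc26a10 and Slc26a11 overlapped between groups.

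**Figure D3:**
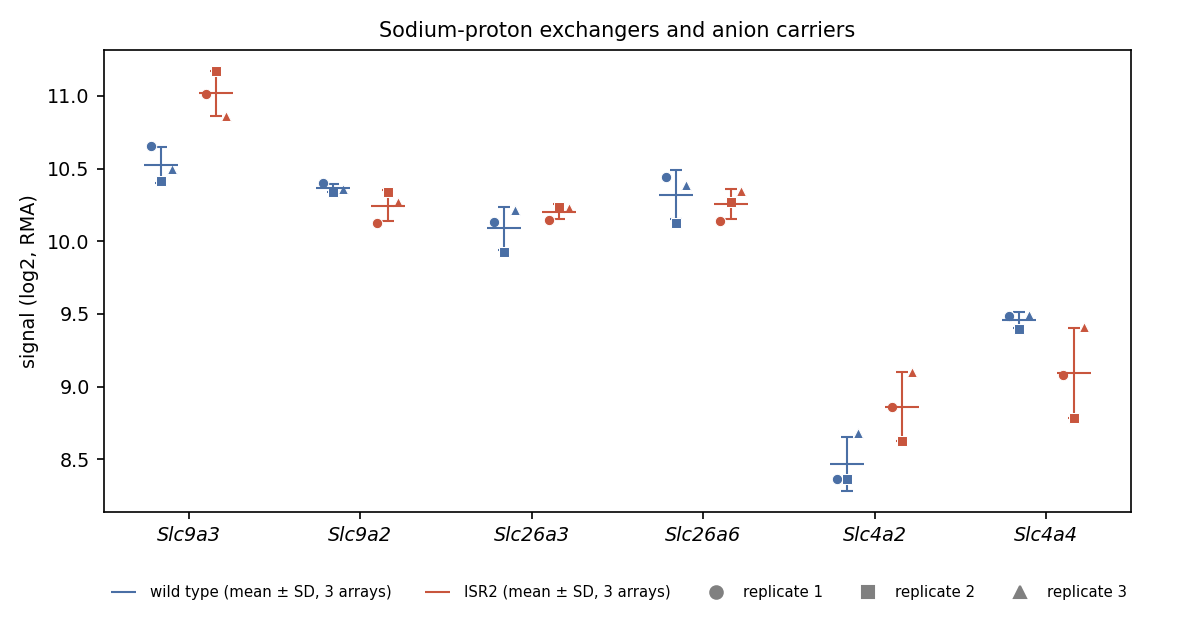
Log2 RMA signal of 6 sodium-proton exchanger and anion carrier genes in each array, with mean and SD bars for 3 wild type and 3 ISR2 arrays. Slc9a3 was higher in all ISR2 arrays (mean 10.52 against 11.02, adjusted p = 0.117), and none of the 6 passed the test.

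Among the 8 cation-chloride cotransporters of the Slc12a family, 0 passed in limma and 1 had an unadjusted p below 0.05. Over all genes the shares were 3.02% and 13.1%. Differences in the family ran from -0.41 to 0.06 with a median of -0.08. Slc12a3, the thiazide-sensitive cotransporter of the kidney, read 6.04, 5.98 and 6.01 in wild type and 5.58, 5.72 and 5.48 in ISR2, so all ISR2 arrays were lower (-0.41, SE 0.12, adjusted p = 0.149; 0.0334 with array weights, and up to 0.416 without wild type replicate 1). Slc12a2, the cotransporter NKCC1 that loads crypt cells with chloride for secretion, read 8.51, 9.19 and 9.53 in wild type and 9.00, 8.21 and 9.66 in ISR2. Its arrays spread by more than 1 within each group, far beyond the difference of -0.12 (95% interval -0.94 to 0.70, adjusted p = 0.938), which was 0.31 without the muscle-rich arrays. Slc12a1, Slc12a4, Slc12a5, Slc12a7, Slc12a8 and Slc12a9 overlapped between groups.

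The sodium-calcium exchangers, 3 of the Slc8a family and 5 of the Slc24a family, held no call in limma. They held 0 genes with an unadjusted p below 0.05 and no gene whose groups were apart. The shares over all genes were 3.02%, 13.1% and 19.8%. The widest spread among these exchangers followed the muscle markers. Slc24a3, a potassium-dependent exchanger known from smooth muscle and brain, read 5.54, 8.43 and 5.63 in wild type and 5.71, 7.69 and 5.86 in ISR2, so that the muscle-rich array was the highest of each group. The difference between groups was -0.11 with a 95% interval of -1.85 to 1.63, and 0.20 without these 2 arrays. Slc8a1, the exchanger NCX1 of heart and smooth muscle, read 4.82, 6.13 and 4.93 in wild type and 4.72, 5.46 and 5.09 in ISR2, with the same arrays on top (-0.20, 95% interval -0.96 to 0.55; 0.030 without them). The part of muscle in these spreads was not tested. Slc24a1, the exchanger of rod photoreceptors, read 5.89, 5.68 and 5.32 in wild type and 5.76, 6.12 and 5.59 in ISR2 and overlapped (0.19, adjusted p = 0.758). Slc8a2, Slc8a3, Slc24a2, Slc24a4 and Slc24a5 also overlapped.

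**Figure D4:**
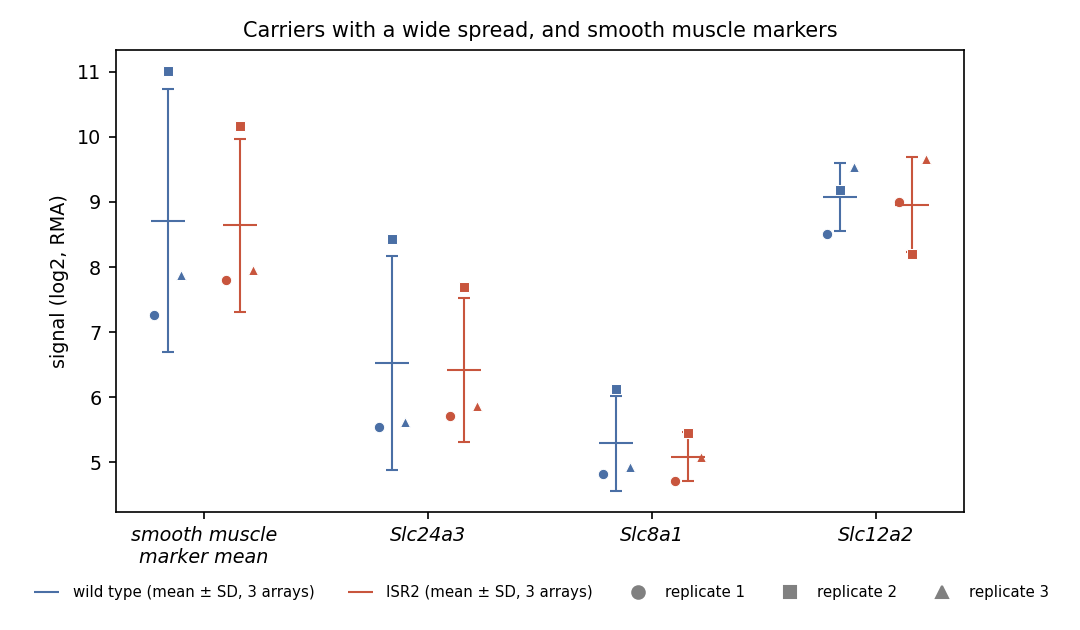
Log2 RMA signal in each array of Slc24a3, Slc8a1 and Slc12a2, beside the mean of 6 smooth muscle markers, with mean and SD bars for 3 arrays per group. Replicate 2 of both groups is highest for the muscle markers (11.02 and 10.17), Slc24a3 (8.43 and 7.69) and Slc8a1 (6.13 and 5.46), but not for Slc12a2.

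Among genes for proteins that anchor or steer the carriers, Pdzk1 and Ezr fell. Of 19 scaffolds and regulators measured, 2 fell and 0 rose in limma (5 lower and 0 higher at an unadjusted p below 0.05), with a median of -0.14. The 2 make 10.5% of the list, where 1.23% of all genes fell and 3.02% were called. The 5 stand beside the 13.1% of all genes below the unadjusted threshold. All 19 had mean signals above the median of all genes, and of the genes above it 2.11% fell and 5.31% were called. Pdzk1, a scaffold that binds several brush border carriers, read 9.82, 9.52 and 9.80 in wild type and 8.80, 8.91 and 8.93 in ISR2, and fell by 0.83 (SE 0.13, adjusted p = 0.00887). Ezr, which encodes ezrin, the link between brush border membrane proteins and actin, read 11.72, 11.60 and 11.59 in wild type and 10.96, 10.53 and 10.85 in ISR2, and fell by 0.85 (SE 0.14, adjusted p = 0.0125). In both genes the ISR2 arrays all lay below the wild type arrays. Pdzk1 was lost without wild type replicate 1 (adjusted p = 0.0539) or ISR2 replicate 1 (0.0604), and Ezr without wild type replicate 1 (0.072), with all rows tested (0.0503) and without the muscle-rich arrays (0.0546).

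Slc9a3r1, which encodes NHERF1, the scaffold that ties NHE3 and other carriers to ezrin, read 12.03, 11.91 and 11.84 in wild type and 11.43, 11.35 and 11.49 in ISR2. All ISR2 arrays were lower, by 0.51 (SE 0.12), at an adjusted p of 0.0663. It passed with an intensity trend in the variance model (0.0342), with dim genes filtered out (0.0407) and with array weights (0.0173), and did not after median centring (0.128), with all rows tested (0.134), without both muscle-rich arrays (0.239) or without any 1 array (up to 0.267). The scaffolds did not all differ in this way. Slc9a3r2, which encodes NHERF2, overlapped between groups (-0.01, adjusted p = 0.992), as did Pdzd3, which encodes a further scaffold of this kind (-0.14, adjusted p = 0.737), and Slc4a1ap (-0.07, adjusted p = 0.905). Of the enterocyte markers measured beside them, Apoa1 (-0.51) and Apoa4 (-0.49), apolipoproteins of lipid export, differed about as much as Slc9a3r1. Vil1 (-0.34) and Epcam (-0.31) were also lower in every ISR2 array than in every wild type array. Fabp2 differed by -0.03, while Fabp1 (0.14), Sis (0.14) and Cdh1 (0.04) lay above 0. None of these markers passed in limma, and the part of enterocyte content was not tested.

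Chloride and potassium channels and the sodium pump showed 2 falls and 0 rises in limma among 13 measured (2 lower and 1 higher at an unadjusted p below 0.05), so 15.4% were called where 3.02% of all genes were. Scnn1a, a subunit of the epithelial sodium channel, was the 1 higher gene (0.71, adjusted p = 0.251, groups overlapping), and it rose with array weights, with the replicate block and at the unadjusted threshold with a 1.5-fold change. Kcnj13, an inwardly rectifying potassium channel, read 6.39, 6.46 and 6.36 in wild type and 5.23, 5.84 and 5.52 in ISR2 and fell by 0.87 (SE 0.16, adjusted p = 0.0222). Clcn2, the chloride channel ClC-2, read 10.21, 10.05 and 9.78 in wild type and 9.35, 9.36 and 9.38 in ISR2 and fell by 0.65 (SE 0.14, adjusted p = 0.0447). Groups were apart for both, but leaving out 1 array ended each call in 5 of 6 cases (adjusted p up to 0.0967 and 0.195), the exceptions being ISR2 replicate 2 for Kcnj13 and wild type replicate 3 for Clcn2. Clcn2 was also lost after median centring (0.0613), after quantile normalization (0.0505) and without both muscle-rich arrays (0.187), and both with all rows tested (0.0783 and 0.111).

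The carbonic anhydrase family holds enzymes that make bicarbonate and protons for the exchangers, though not every gene of that name need do so. Of 16 genes so named, 1 fell and 0 rose in limma, or 6.25% called where 3.02% of all genes were. At an unadjusted p below 0.05, 1 was lower and 1 higher. Car2, the cytosolic form, read 8.70, 8.29 and 8.18 in wild type and 7.18, 7.34 and 7.53 in ISR2. Every ISR2 array was lower, and the gene fell by 1.04 (SE 0.17, adjusted p = 0.00989), a 2.06-fold difference. Its call was lost without ISR2 replicate 1 (adjusted p = 0.0636).

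**Figure D5:**
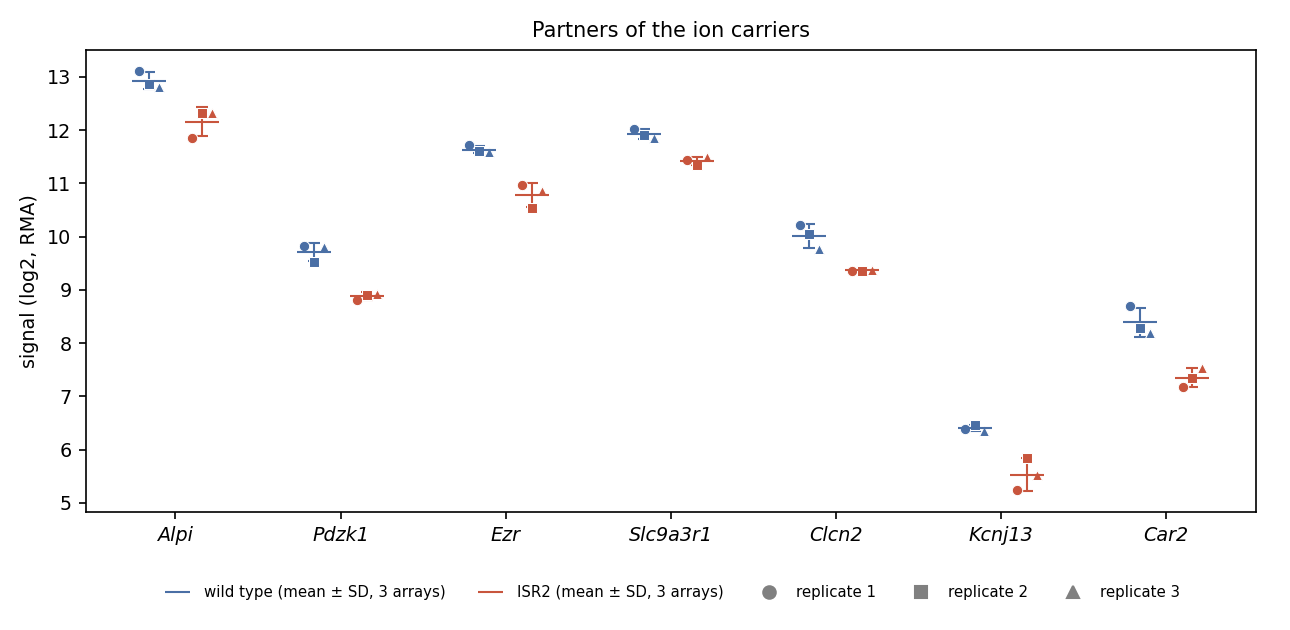
Log2 RMA signal of 7 partner genes in each array, with mean and SD bars for 3 wild type and 3 ISR2 arrays. The genes shown are those of the related lists that passed in limma, and Slc9a3r1, named after its values were seen. In each of the 7 the ISR2 arrays all lie below the wild type arrays, from a difference of -0.51 for Slc9a3r1 to -1.04 for Car2. This follows from how the 7 were picked and is no count over the lists. Of all genes, 13.9% were lower in every ISR2 array.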

How the data were processed

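Biotin-labelled total RNA was hybridised after Affymetrix whole-transcript labelling, per the labels. The authors deposited log2 signals from RMA, as the submitters' processing notes record, and no source used here gives its version. RMA brings the arrays' distributions close together, so changes shared by most genes are largely removed, and changes of dim genes are compressed. The deposited values were not fully equal: array medians lay between 6.04 and 6.19, and the median difference of all genes was -0.06. Of 35556 rows, 21789 had 1 gene symbol, which gave 19938 genes; 48 of 48 carriers matched RefSeq's gene table by Entrez ID. Groups came from sample titles. All genes were fitted together in limma 3.58.1 (R 4.3.3; lmFit, then eBayes) without covariates, with two-sided p-values, the Benjamini-Hochberg adjustment across the 19938 genes and a threshold of 0.05. The steps were tested on simulated data. Figures were drawn with matplotlib 3.10.9.

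The carriers, the related lists and the tests were chosen with earlier results of these data known. All 6 values are given for carriers that passed, the next by p up to 15, and 1 or more genes of known role in each family listed beforehand. Slc24a3, Slc9a3r1, Slc9a3r2, Pdzd3, Slc4a1ap, Scnn1a and Akp3 and the single marker genes were named after their values were seen. Otherwise related lists name genes that passed, at most 4 by p. The alternatives tried were other variance models, array weights, scalings, filters, rows, thresholds, the replicate number as a block and each array left out; leaving out both muscle-rich arrays was added after seeing the data.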

Additional observations from a re-analysis of the deposited data

How the results depend on the processing

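Slc20a1 rose and Slc34a2 fell under every alternative tried for them, with differences of 1.17 to 1.48 and -3.64 to -2.93. The count of carriers that rose was 1 under each alternative other than array weights, where it was 2 (1 without each array in turn). The count that fell was 2 with the replicate block, 4 with array weights, and 1 after median centring, after quantile normalization, with all rows tested, with a 1.5-fold change at unadjusted p 0.05, without both smooth muscle-rich arrays and without each array in turn (1 to 1). With the replicate block 1 carrier rose, and 778 of all genes were called, beside 602 without it. Deviations of same-numbered arrays correlated at -0.02, 0.32 and 0.54. Replicates 2 and 3 correlated best with their own number, and wild type replicate 1 best with ISR2 replicate 2 (0.20). No covariate is named in the labels, and the numbers were not taken as pairs. Among genes that did not pass, the sign turned for Slc12a2 (-0.47 to 0.26 without 1 array at a time, above 0 without wild type replicate 3 or ISR2 replicate 2; 0.31 without both muscle-rich arrays), Slc8a1 (-0.44 to 0.22, above 0 without wild type replicate 2; 0.030 without both) and Slc24a3 (-0.74 to 0.84, above 0 without replicate 2 of wild type or without replicate 1 or 3 of ISR2; 0.20 without both); the cause was not tested. Over all genes, 356 rose and 246 fell, against 630 and 638 with array weights. Falls numbered 91 with all rows tested, 386 at an adjusted p of 0.10, 404 at the unadjusted threshold, 159 without both muscle-rich arrays and 85 to 236 without 1 array at a time, and rises 236 to 353 in the last case. The number of arrays limits all of these.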
